A study of Rattus norvegicus with 132 samples.

Results

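The comparison described here sets RM-HS kidneys against RM kidneys at the corticomedullary junction, the band of tissue where cortex meets outer medulla. It rests on 8 RM-HS and 8 RM regions of interest (ROIs), 16 of the 132 ROIs of the series, taken as all ROIs whose titles carry those group names and the area CMJ. The study profiled kidney sections of rats with trauma-induced acute kidney injury in 4 groups: RM-HS, RM, HS and Sham, with 3 rats in each. The labels do not spell out RM and HS, which in this field usually stand for rhabdomyolysis (breakdown of skeletal muscle) and hemorrhagic shock. RM-HS kidneys carry both labels and RM kidneys only the first, so RM-HS against RM shows what differed when HS was added to RM. Strain, sex, age, doses and the time of sampling are not given in the sources used here. ROIs were picked by hand on formalin-fixed sections, probes of the mouse transcriptome were hybridised to rat tissue, and released barcodes were sequenced. Sham and HS ROIs of the same area (9 each) are given as levels only: 6 Sham ROIs shared plate C with RM-HS and RM, and all HS ROIs were on plate E.

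Proximal tubules cross this band as their straight segments, which reabsorb solutes, take up filtered proteins and make glucose. Gluconeogenesis in these cells runs through phosphoenolpyruvate carboxykinase (Pck1) and ends with glucose-6-phosphatase (G6pc), while fructose enters through its own transporter and is phosphorylated by ketohexokinase. Injured tubule cells are also known to turn on tissue factor (F3), which starts the clotting cascade, urokinase (Plau), which activates plasminogen, and complement component C3.

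Values are signals that the authors scaled so that every ROI has the same upper quartile of 58.2, and changes are log2 fold changes ± SE of signal + 1 from limma, RM-HS over RM. The RM-HS ROIs held 1074235 to 1990217 reads and the RM ROIs 1103587 to 2305964, with 1.79 to 3.87 reads behind each unit of signal. The negative probe, which measures background, had a median of 21.9 in RM-HS and 21.9 in RM. Slc7a13, which carries amino acids in the straight segment of the proximal tubule, averaged 2078 ± 424 in RM-HS and 1943 ± 263 in RM (SD, n = 8 ROIs each) at the junction, and between 45.9 and 51.7 in medulla and cortex of both groups, as the area label requires. The labels do not tie ROIs to rats. The 8 ROIs of a group come from at most 3 rats, so that some share an animal and every p-value over ROIs given here is too small. ROIs were grouped into 3 runs of neighbouring wells per group, which served as a random block (consensus correlation 0.292) and which the labels do not equate with animals. RM-HS wells lay in other plate rows than RM wells, so that plate position and group cannot be told apart. In such regions, fewer cells of a type and less RNA per cell cannot be told apart either.

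Of 4880 genes tested, 137 were called higher in RM-HS (2.81%) and 113 lower (2.32%) at an adjusted p under 0.05. All 8 RM-HS ROIs lay above all 8 RM ROIs for 44 genes (0.902%) and below them for 50 (1.02%). Pck1 and G6pc, which sit in the same pathway, held the largest rise and the largest fall among called genes, and the clotting and fibrinolysis genes F3 and Plau were higher together with C3. Several enzymes of fructose and glucose handling were lower. With 1 mean per well run, 58 genes were called higher and 30 lower, all of them among the 250. Leaving out 1 well run at a time left 64 of the 250 called in each of the 6 fits, and no called gene changed sign under any alternative. The counts were 54 higher and 37 lower without RM run 2, 86 and 67 without RM-HS run 2, and 271 and 137 without RM-HS run 1. In a series-wide fit with a plate term, 27 genes were called higher and 15 lower, and 28 of the genes taken for naming lost their call.

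**Figure D1:**
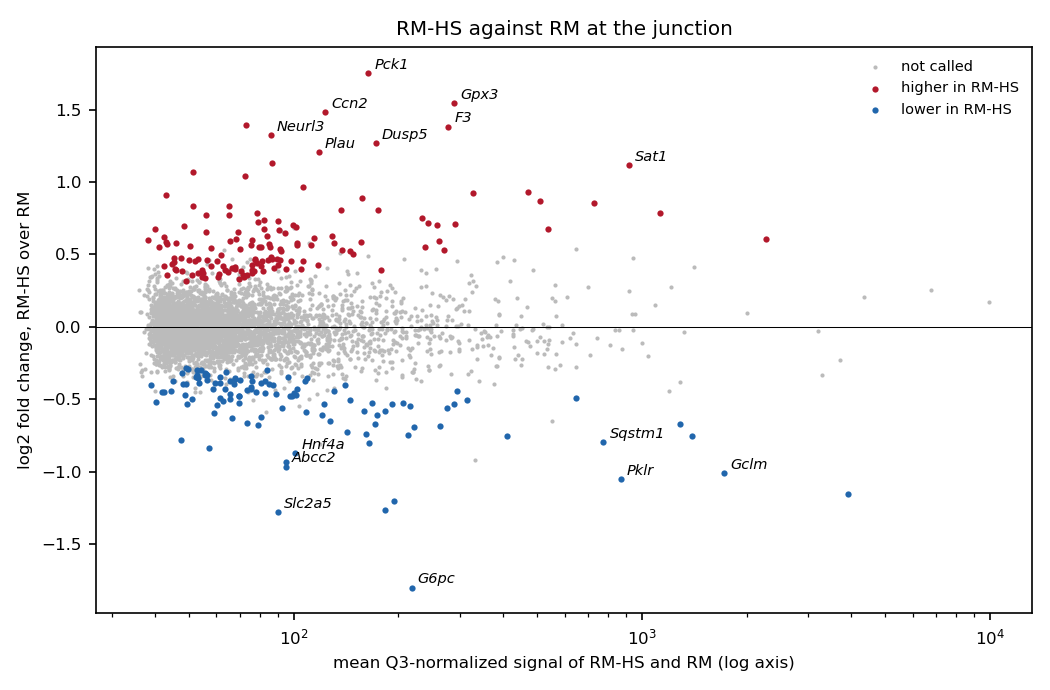
Mean signal of RM-HS and RM (x axis, log) against the log2 fold change of RM-HS over RM (y axis) for the 4880 genes tested at the junction, with called genes in red (137 higher in RM-HS) and blue (113 lower). Pck1 is the highest called point and G6pc the lowest.

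Of the 6 tested genes of clotting and plasmin formation, 4 were higher in RM-HS. F3, the cell-surface trigger of the extrinsic clotting pathway, ranged over 152.5, 378 and 769.5 (lowest, median and highest ROI) in RM-HS and over 76.5, 129.9 and 248 in RM. In RM-HS, 5 of 8 ROIs exceeded every RM ROI and the groups overlapped, with a log2 fold change of 1.38 ± 0.31 (adjusted p = 0.00673). By well run, F3 averaged 183, 673 and 463 in RM-HS and 112, 127 and 222 in RM, so RM-HS run 1 lay below RM run 3. The call was lost with 1 mean per run (adjusted p = 0.0855), without RM run 2 (0.0638) and without RM-HS run 2 (0.0602). Plau, which encodes urokinase, ranged over 101, 157 and 256 in RM-HS and over 56.7, 67.9 and 84.8 in RM, with no overlap (1.20 ± 0.17, adjusted p = 4.16e-05).

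Annexin A2 and its partner S100a10, which together form a cell-surface receptor for plasminogen and its activator, were also higher. Anxa2 ranged over 76.2, 98.7 and 125 in RM-HS and over 42.2, 61.3 and 76.3 in RM (0.72 ± 0.13, adjusted p = 0.0013). S100a10 ranged over 219.5, 291 and 418 in RM-HS and over 144, 187 and 219 in RM (0.71 ± 0.15, adjusted p = 0.0044). Both calls were lost without RM run 2 (adjusted p = 0.051 for Anxa2 and 0.0671 for S100a10) and in the series-wide fit (0.107 and 0.0894), and that of S100a10 with 1 mean per run (0.0759). The table held 9 clotting and fibrinolysis genes and 6 were tested, of which these 4 rose and none fell, with a median log2 fold change of 0.72 against -0.0022 over all genes tested. Serpinc1, which inhibits thrombin, was not called (-0.14 ± 0.10). Over all genes tested, 2.81% were called higher.

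C3, the central complement protein, ranged over 62.0, 96.4 and 265 in RM-HS and over 43.8, 49.7 and 55.1 in RM. Every RM-HS ROI lay above every RM ROI (1.13 ± 0.27, adjusted p = 0.01), but RM-HS run 1 averaged 63.9 against 153 and 165 in its runs 2 and 3. The call was lost without RM run 2 (adjusted p = 0.0815) and without RM-HS run 2 (0.0705). Of 3 complement genes tested, only C3 was called. The other 2, C1qb and C1qc of the classical pathway, had log2 fold changes of 0.08 ± 0.10 and 0.25 ± 0.12. The HS medians were 56.5 for F3, 113 for Plau and 52.2 for C3. The Sham medians were 48.8 for F3, 60.6 for Plau and 55.5 for C3. For Plau, Sham ROIs ranged from 58.2 to 79.8 on plate C and from 98.3 to 127.9 on plate E. The HS values of Plau (72.7 to 159.4) came from plate E alone and spanned the Sham values of that plate. The Plau medians of HS and Sham therefore cannot separate group from plate.

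Pck1, which commits carbon to glucose synthesis, ranged over 119.7, 217 and 571 in RM-HS and over 42.9, 58.7 and 109 in RM. No RM-HS ROI overlapped RM, at 3.37-fold (1.75 ± 0.28, adjusted p = 0.000194; 0.0249 with 1 mean per run). HS ROIs had a median of 146. Sham ROIs ranged over 294, 511 and 559, above every RM ROI and overlapping RM-HS. G6pc, which releases free glucose at the end of the same pathway, went the other way. It ranged over 62.8, 89.9 and 164 in RM-HS and over 199, 316 and 517 in RM, with no overlap (-1.80 ± 0.23, adjusted p = 1.71e-05; 0.00068 with 1 mean per run). The RM-HS median for G6pc was nearer the HS median of 99.3 and the Sham median of 56.9 than the RM median was. Subtracting the negative probe gave log2 fold changes of 2.26 for Pck1 and -2.14 for G6pc, both still called.

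Several fructose-handling genes were lower. Slc2a5, the fructose transporter GLUT5, ranged over 43.6, 51.5 and 66.1 in RM-HS and over 103, 136 and 150.4 in RM (-1.28 ± 0.13, adjusted p = 1.72e-07), without overlap. Tkfc, the kinase that prepares fructose-derived glyceraldehyde for glycolysis, ranged over 29.1, 42.3 and 53.4 in RM-HS and over 61.8, 71.7 and 90.6 in RM (-0.84 ± 0.13, adjusted p = 0.000204; 0.105 in the series-wide fit). It did not overlap between groups either. In most RM-HS ROIs, however, Tkfc lay below 2 times the negative probe. It was tested only because of its RM ROIs, so its lack of overlap is no separate support. The table held 14 gluconeogenesis and fructose genes and 12 were tested: Pck1 rose, 7 fell and the median was -0.38. The 7 included G6pc, Slc2a5 and Tkfc, and the gluconeogenic enzyme Fbp1 had 0.00022 ± 0.09. Over all genes tested, 2.81% were called higher and 2.32% lower.

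Glucose-using enzymes and lipid synthesis held further large falls. Gpi1, which interconverts glucose and fructose phosphates, ranged over 75.6, 122.5 and 135 in RM-HS and over 205, 264 and 314 in RM (-1.26 ± 0.15, adjusted p = 2.67e-06). Pklr, the pyruvate kinase of liver and kidney, ranged over 279.6, 686 and 811 in RM-HS and over 800.2, 1139 and 1536 in RM (-1.05 ± 0.21, adjusted p = 0.00357; 0.0875 with 1 mean per run). Acly, which makes cytosolic acetyl-CoA, ranged over 105, 113 and 156 in RM-HS and over 214, 264.5 and 342 in RM (-1.20 ± 0.13, adjusted p = 1.21e-06). Gpi1 and Acly did not overlap between groups, and 7 of 8 RM-HS ROIs lay below every RM ROI for Pklr. Acly was the only one of 6 lipid genes tested to be called. Among 12 genes of glycolysis and the hypoxia response, a list without Gpi1 and Pklr, 2 rose and none fell (median 0.13). They were the glucose transporter Slc2a1 (0.74 ± 0.12, adjusted p = 0.000194), with all 8 RM-HS ROIs above RM, and Pfkfb3, which makes an activator of glycolysis (0.60 ± 0.16, adjusted p = 0.0237). The Pfkfb3 call was lost without RM run 1 (adjusted p = 0.21), RM run 2 (0.106) or RM-HS run 2 (0.183).

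**Figure D2:**
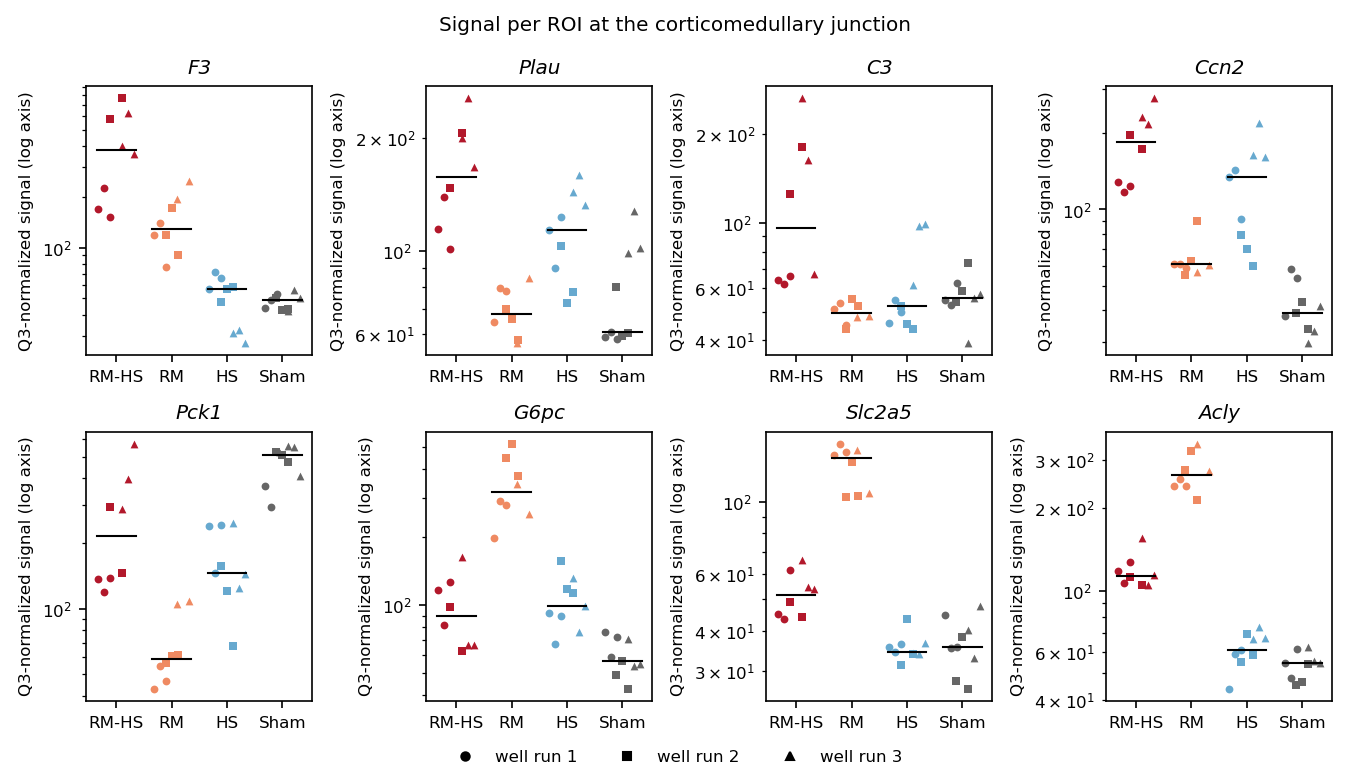
Signal of 8 genes in every ROI of the junction (y axes, log), by group from left to right (RM-HS, RM, HS, Sham), with marker shape for the well run and a line at the group median. All RM-HS ROIs lie above all RM ROIs for Plau, C3, Ccn2 and Pck1 and below them for G6pc, Slc2a5 and Acly; F3 overlaps.

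Promoter sequences of the rat show where the transcription of 4 of these genes starts. They come from RefSeq (GRCr8) and run from 250 bases before to 50 bases after each gene's start. Each is printed in the gene's own 5′ to 3′ direction. Of these genes, Plau, C3 and Pck1 were higher in RM-HS and G6pc was lower, as described above. Capitals mark matches, on either strand, to TGANTCA (the AP-1 site), ACGTCA (the core of a cAMP response element) or ACGTG (the core of a hypoxia response element).
Plau, chr15:3511938-3512237, minus strand: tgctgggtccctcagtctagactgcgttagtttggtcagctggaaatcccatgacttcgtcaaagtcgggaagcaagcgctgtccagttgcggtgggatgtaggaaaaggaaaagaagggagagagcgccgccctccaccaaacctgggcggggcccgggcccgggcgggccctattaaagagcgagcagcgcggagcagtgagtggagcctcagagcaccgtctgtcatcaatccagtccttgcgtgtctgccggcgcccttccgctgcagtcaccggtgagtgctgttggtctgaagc
C3, chr9:2201290-2201589, minus strand: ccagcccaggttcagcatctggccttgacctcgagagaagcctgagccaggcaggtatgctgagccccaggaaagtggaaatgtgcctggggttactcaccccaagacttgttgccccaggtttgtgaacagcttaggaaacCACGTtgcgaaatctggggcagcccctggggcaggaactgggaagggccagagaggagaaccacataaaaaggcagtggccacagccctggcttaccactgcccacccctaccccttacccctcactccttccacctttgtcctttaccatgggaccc
Pck1, chr3:182348322-182348621, plus strand: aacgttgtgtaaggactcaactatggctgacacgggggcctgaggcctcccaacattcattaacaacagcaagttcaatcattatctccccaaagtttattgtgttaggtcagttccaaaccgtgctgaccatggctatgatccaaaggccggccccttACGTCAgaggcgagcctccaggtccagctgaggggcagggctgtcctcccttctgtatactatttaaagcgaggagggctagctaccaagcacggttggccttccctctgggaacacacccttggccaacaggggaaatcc
G6pc (G6pc1 in RefSeq), chr10:86807409-86807708, plus strand: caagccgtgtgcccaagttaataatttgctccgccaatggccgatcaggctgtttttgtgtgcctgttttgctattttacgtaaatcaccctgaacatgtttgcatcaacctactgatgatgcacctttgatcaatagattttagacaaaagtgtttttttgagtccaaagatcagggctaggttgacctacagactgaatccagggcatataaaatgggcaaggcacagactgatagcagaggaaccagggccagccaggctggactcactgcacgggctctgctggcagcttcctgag
Pck1 held ACGTCA at bases -91 to -86, where the start is base 0, a motif found in 7.94% of 33469 rat promoters of this length. C3 held the reverse complement of ACGTG at bases -108 to -104 (19.3% of promoters held the motif on either strand). The AP-1 letters occurred in none of the 4 and in 7.33% of promoters. None of the 3 motifs lay in the printed Plau and G6pc windows.

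Among the other large rises were genes of growth signalling and matrix. Ccn2, connective tissue growth factor, ranged over 117, 185 and 275.5 in RM-HS and over 55.1, 60.6 and 90.2 in RM (1.48 ± 0.16, adjusted p = 8.92e-07), against a Sham median of 38.8. Dusp5, a nuclear phosphatase that shuts off ERK, ranged over 168, 245 and 316 in RM-HS and over 66.2, 90.5 and 173 in RM (1.27 ± 0.20, adjusted p = 0.000194). Neurl3, a ubiquitin ligase, ranged over 101, 118 and 148 in RM-HS and over 41.2, 47.5 and 60.3 in RM (1.32 ± 0.11, adjusted p = 1.04e-08). Ccn2 and Neurl3 did not overlap between groups, and for Dusp5 only 1 RM-HS ROI fell within the RM range. Sat1, which breaks down polyamines, was strong in both injuries. It ranged over 863.5, 1333 and 1631 in RM-HS and over 417, 529 and 819 in RM (1.12 ± 0.18, adjusted p = 0.000206), with a Sham median of 109.7.

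Gpx3, the secreted glutathione peroxidase made by the proximal tubule, ranged over 209, 446 and 754 in RM-HS and over 107, 133 and 176 in RM (1.55 ± 0.20, adjusted p = 2e-05). In cortex its level was far higher, with means of 4421 ± 1497 in RM-HS and 2539 ± 770 in RM (SD, n = 9 each). The Sham ROIs of the junction had a Gpx3 median of 259.5, between the RM and RM-HS medians, but differed by well run. They ranged from 122.2 to 144.4 in run 1, from 426.8 to 445.7 in run 2 and from 248.5 to 286.5 in run 3. Hspa1a, the inducible heat shock protein, ranged over 41.8, 103 and 211 in RM-HS and over 24.2, 35.2 and 65.9 in RM (1.39 ± 0.28, adjusted p = 0.00357). Its groups overlapped, and the RM values lay near the negative probe, so that subtracting the probe moved the log2 fold change to 2.62. The 12 largest rises were completed by Crtac1, a matrix protein (1.07 ± 0.17, adjusted p = 0.000232; 2.22 with the negative probe subtracted), and Cyp2c23, a kidney enzyme of the rat that makes epoxides of arachidonic acid (1.04 ± 0.18, adjusted p = 0.00046; 1.67 with the probe subtracted). Neither overlapped between groups. In RM, however, Crtac1 (23.2 to 38.9) lay below 2 times the negative probe in every ROI, and Cyp2c23 (33.2 to 55.6) in most. Both reached the level for testing only through their RM-HS ROIs, so their lack of overlap is no separate support.

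Among 14 tested genes of the NRF2 response and oxidative stress, 5 fell, 1 (Gpx3) rose and 8 were not called, with a median of -0.36. The share called lower over all genes tested was 2.32%. Gclm, a subunit of the enzyme that starts glutathione synthesis, ranged over 761, 994 and 1971 in RM-HS and over 1482, 2339 and 2657 in RM (-1.01 ± 0.20, adjusted p = 0.00338; 0.072 with 1 mean per run). Sqstm1, the autophagy adaptor p62 and an NRF2 target, ranged over 469, 576 and 699 in RM-HS and over 859.9, 963 and 1143 in RM, with no overlap (-0.79 ± 0.14, adjusted p = 0.000569; 0.0695 with 1 mean per run). Sod1, cytosolic superoxide dismutase, had -0.75 ± 0.17 (adjusted p = 0.00774; 0.153 with 1 mean per run). Among 7 heme and iron genes only Ftl1, the light chain of ferritin, was called (-0.67 ± 0.16, adjusted p = 0.0122). That call was lost without RM run 1 (adjusted p = 0.106) or RM-HS run 2 (0.0908) and with 1 mean per run (0.178).

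Regulators and transporters of the tubule were also among the 12 largest falls. Hnf4a, a master regulator of proximal tubule identity, ranged over 55.3, 69.6 and 98.8 in RM-HS and over 107, 137 and 145 in RM (-0.87 ± 0.14, adjusted p = 0.000194). Its HS and Sham medians were 162 and 160.3, above every RM-HS ROI. Maf, a transcription factor, ranged over 51.8, 64.6 and 77.1 in RM-HS and over 105, 113 and 156.5 in RM (-0.93 ± 0.13, adjusted p = 2.52e-05). Abcc2, an export pump for conjugates, ranged over 58.5, 62.8 and 76.6 in RM-HS and over 93.1, 132.5 and 149 in RM (-0.97 ± 0.12, adjusted p = 1.22e-05). None of these 3 overlapped between groups. Slc17a3, an organic anion transporter, fell by 0.80 ± 0.16 on the log2 scale (adjusted p = 0.00338; 0.0675 with 1 mean per run), with 7 of 8 RM-HS ROIs below RM.

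**Figure D3:**
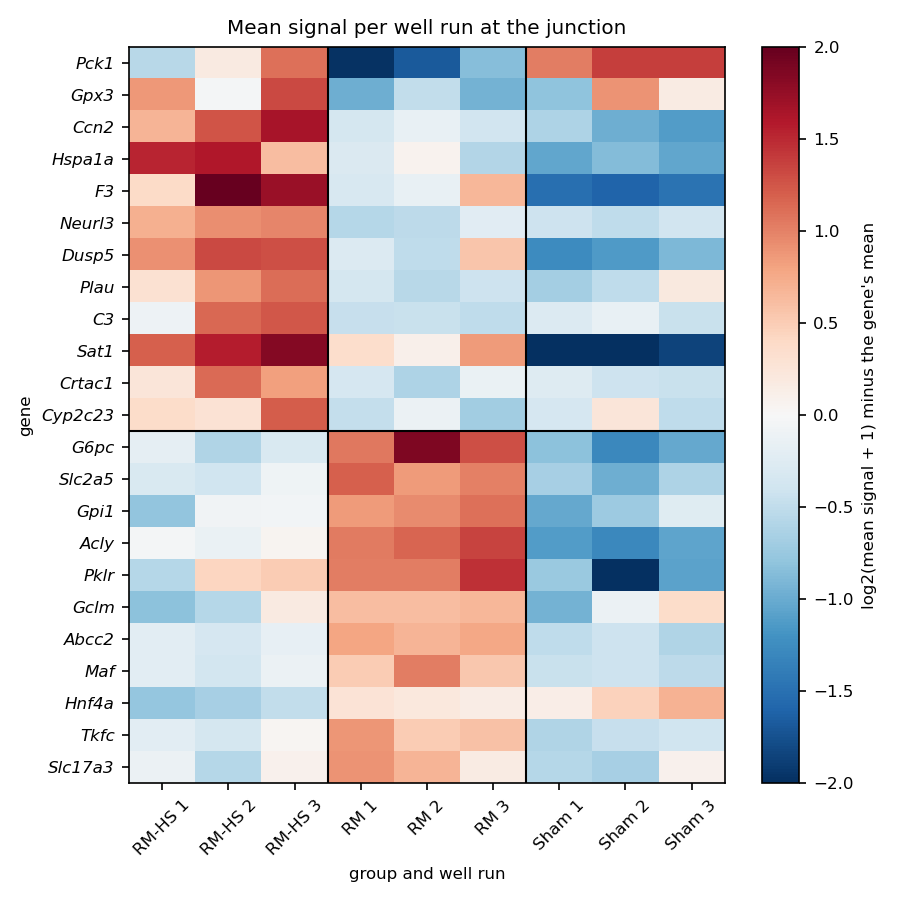
Mean signal per well run for the 12 largest rises (above the line) and 11 of the 12 largest falls (below it), as log2(mean + 1) minus the gene's mean over the 9 runs shown (colour, red high), with columns for RM-HS, RM and Sham runs. For F3 and C3 RM-HS run 1 is paler than RM-HS runs 2 and 3, while G6pc, Slc2a5 and Acly are redder in each RM run than in any RM-HS or Sham run.

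Classical injury genes and segment markers were mostly not called. Havcr1, which encodes kidney injury molecule 1, ranged over 193, 371 and 544 in RM-HS and over 277, 419 and 519 in RM, against a Sham median of 45.2 (-0.27 ± 0.21, adjusted p = 0.621). Slc34a1, the phosphate transporter of the proximal tubule, ranged over 135, 172 and 395 in RM-HS and over 149.6, 170.2 and 215 in RM (0.11 ± 0.18, adjusted p = 0.877). Both genes overlapped widely between groups. Of 12 tubular injury and repair genes tested, 1 rose, the keratin gene Krt8 (0.57 ± 0.11, adjusted p = 0.00267; 0.299 in the series-wide fit; all 8 RM-HS ROIs above RM), and none fell. Krt8 lay near background in RM (29.3 to 39.8) and was not tested under the stricter filter. It reached the level for testing only through its RM-HS ROIs, so its lack of overlap is no separate support. Of 11 proximal tubule genes, Cyp2e1, an oxidising enzyme, rose (0.77 ± 0.13, adjusted p = 0.000239; 0.108 in the series-wide fit) and Hnf4a fell. Of 9 straight proximal tubule genes, only Gclm was called. Summed over each list, signal ranged from 2064 to 4486 in RM-HS and from 2277 to 3340 in RM for proximal tubule, and from 6349 to 13100 in RM-HS and from 8620 to 12630 in RM for its straight segment.

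Immediate early genes, which cells switch on within minutes of a stimulus, rose in part: 6 of 20 tested, none lower, with a median of 0.30. Over all genes tested, 2.81% were called higher and 2.32% lower. The lists were chosen with earlier results of these data known, so such counts are no test of a list. Dusp1, a phosphatase of stress kinases, ranged over 101, 126 and 247 in RM-HS and over 55.8, 66.3 and 102 in RM (0.96 ± 0.18, adjusted p = 0.00119), and its call held without each well run. Btg2, an antiproliferative gene, ranged over 524, 942 and 1428 in RM-HS and over 328, 436 and 843 in RM (0.86 ± 0.23, adjusted p = 0.0234), with adjusted p = 0.317 without RM run 2. Fosb, an AP-1 subunit, had 0.77 ± 0.19 (adjusted p = 0.0158; 0.0927 without RM run 2). Klf4, a zinc finger factor, had 0.70 ± 0.18 (adjusted p = 0.0166; 0.118 without RM run 1). Of 10 EGF receptor ligands and feedback genes, 4 rose and none fell (median 0.26). Besides Dusp5 they were Phlda1, Ier3 and Errfi1, an inhibitor of the receptor, with 0.75 ± 0.18, 0.52 ± 0.12 and 0.41 ± 0.12 (adjusted p = 0.0126, 0.0107 and 0.0494). Those 3 calls were lost without RM run 2 (adjusted p = 0.229, 0.185 and 0.0756) and with 1 mean per run (0.19, 0.163 and 0.241), and that of Errfi1 reached 0.319 without RM run 1.

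Some cell attachment genes rose too, 4 of 15 tested in the list of integrins and actin cytoskeleton (median 0.20, none lower). The share called higher over all genes tested was 2.81%. Itgav, the integrin αv chain that binds vitronectin and fibronectin, ranged over 174, 219 and 279 in RM-HS and over 118, 124.5 and 146 in RM, with no overlap (0.81 ± 0.12, adjusted p = 7.7e-05). Actg1, a cytoplasmic actin, had 0.79 ± 0.20 (adjusted p = 0.0179; 0.274 without RM run 2). Itga3, the chain of a laminin receptor, had 0.47 ± 0.12 (adjusted p = 0.0166; 0.138 without RM run 2), and the actin crosslinker Actn4 had 0.39 ± 0.12 (adjusted p = 0.0446; 0.447 without RM run 2). Of 13 matrix genes, Ccn2 and the protease inhibitor Timp3 (0.68 ± 0.19, adjusted p = 0.0346; 0.291 without RM run 2) rose and none fell. Of 8 glucocorticoid and circadian genes 3 rose and none fell (median 0.30). They were Igfbp1, a binding protein of insulin-like growth factors (0.70 ± 0.18, adjusted p = 0.0155; 0.114 without RM run 3), and the clock genes Nr1d1 (0.55 ± 0.12, adjusted p = 0.0047; 0.489 in the series-wide fit) and Per1 (0.43 ± 0.09, adjusted p = 0.00454; 0.0635 with 1 mean per run). The Per1 call was also lost in the series-wide fit, and its adjusted p reached 0.632 among the alternatives.

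Stress responses were mixed. Of 10 unfolded protein and integrated stress response genes, 3 rose and 1 fell, against 2.81% higher and 2.32% lower over all genes tested. Sesn2 and Ddit4, both brakes on mTORC1, had 0.57 ± 0.12 and 0.55 ± 0.13 (adjusted p = 0.00403 and 0.00774; 0.505 for Sesn2 in the series-wide fit), and Ppp1r15a, which restores translation after stress, had 0.53 ± 0.13 (adjusted p = 0.0158). The chaperone Pdia4 fell by 0.34 ± 0.09 on the log2 scale (adjusted p = 0.0266). Without RM run 2 the adjusted p was 0.0577 for Ddit4, 0.0577 for Ppp1r15a and 0.201 for Pdia4, and without RM run 1 it was 0.0968 for Ppp1r15a. Of 10 heat shock genes only Hspa1a was called, and of 7 p53 targets and cell death genes only the growth arrest gene Gadd45a rose (0.53 ± 0.14, adjusted p = 0.0203; 0.142 without RM run 1). Of 7 cytokine and NF-kB response genes, 1 rose, the transcription factor gene Cebpb (0.48 ± 0.14, adjusted p = 0.0388; 0.176 without RM run 2).

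Lists for basic metabolism held few calls or none. No gene of mitochondrial electron transport (15 tested), translation (15), fatty acid oxidation (6), interferon and antigen presentation (5) or the cell cycle (2) was called by limma. At an unadjusted p under 0.05, 2 genes of electron transport, 2 of translation and 0 of the other lists passed, and edgeR on the reads of single ROIs called 1, 1 and 0. In those lists the lowest adjusted p were 0.123 for Sdhb, of complex II (-0.37 ± 0.14), and 0.123 for Eif5, an initiation factor (0.31 ± 0.11). Cpt1a, which controls the entry of fatty acids into mitochondria, had 0.09 ± 0.09. Of 11 ribosome biogenesis and polyamine genes, Sat1 rose and the nucleolar gene Ncl fell (-0.58 ± 0.12, adjusted p = 0.00402; 0.0635 with 1 mean per run). The Ncl call was also lost in the series-wide fit, and its adjusted p reached 0.489 among the alternatives.

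**Figure D4:**
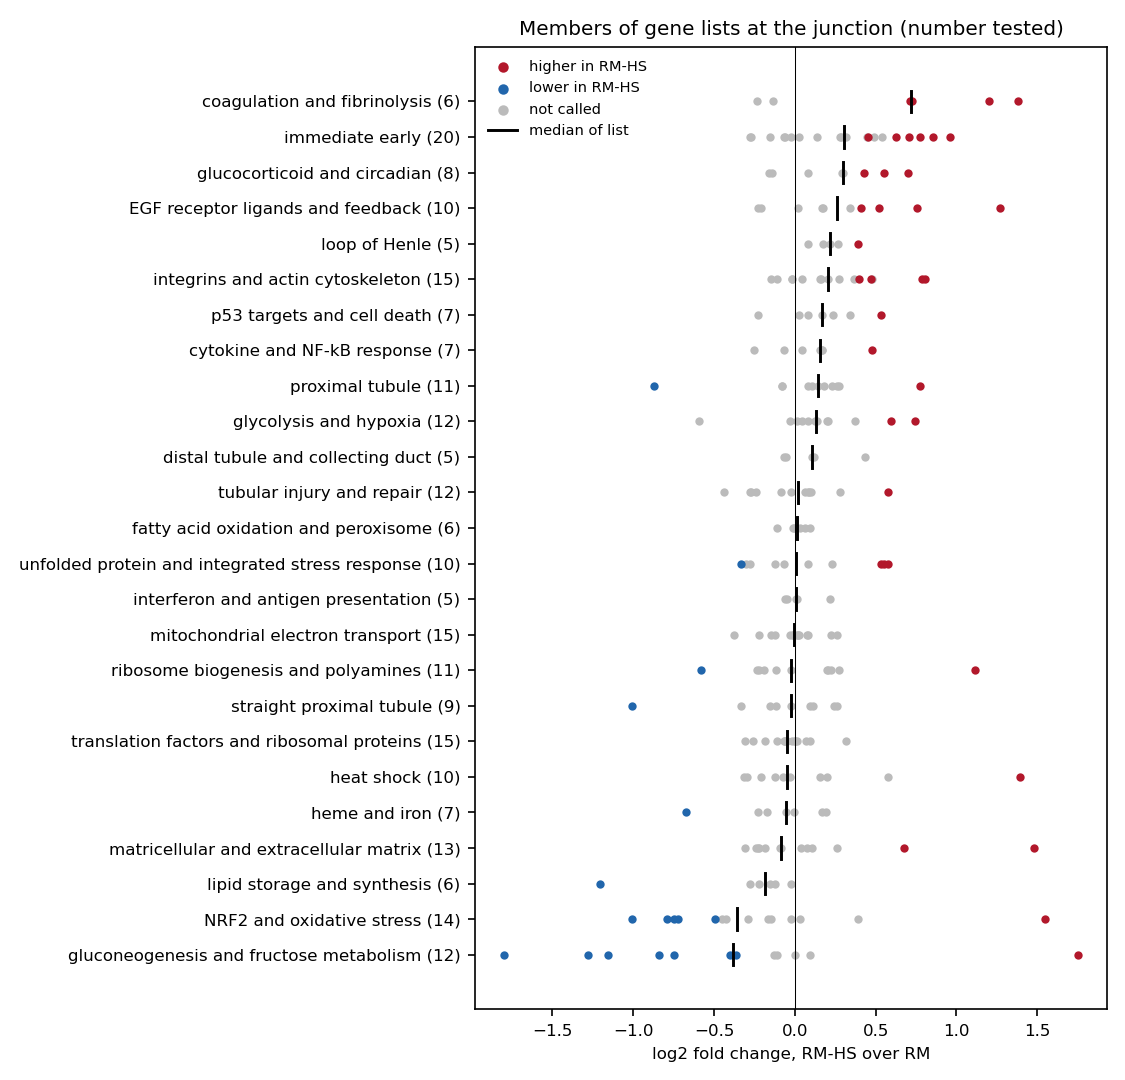
Log2 fold change of RM-HS over RM (x axis) for each tested member of the gene lists with at least 5 members tested (rows, with the number tested), red where higher in RM-HS, blue where lower, grey where not called, and a black bar at the list's median. Clotting and fibrinolysis has the highest median (0.72) and gluconeogenesis and fructose metabolism the lowest (-0.38).

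Of the markers of other cell types, none of 8 podocyte, 1 macrophage, 2 neutrophil, 2 lymphocyte and 4 skeletal muscle genes in the table reached the level for testing. Their summed signal ranged from 202 to 269 in RM-HS and from 209.9 to 268 in RM for podocytes, and from 34.8 to 42.0 in RM-HS and from 33.6 to 45.6 in RM for the single macrophage gene. Of 5 loop of Henle genes only Ppp1r1a, a phosphatase inhibitor, was called (0.39 ± 0.11, adjusted p = 0.0334; 0.328 without RM run 2), and the list's summed signal ranged from 541 to 947 in RM-HS and from 473 to 680.3 in RM. No distal tubule and collecting duct gene of 5 and no endothelial gene of 2 was called by limma, with 1 of each at an unadjusted p under 0.05, and edgeR on single ROIs called 1 and 0. Of 3 fibroblast and pericyte genes, Tagln, an actin-binding protein of contractile cells, fell (-0.49 ± 0.12, adjusted p = 0.0131; 0.0518 with 1 mean per run, 0.0544 without RM run 2). The Tagln call was also lost in the series-wide fit, and its adjusted p reached 0.777 among the alternatives. The hemoglobin gene Hba-a1 ranged over 471, 867 and 3415 in RM-HS and over 485, 1186 and 1953 in RM (-0.44 ± 0.37, adjusted p = 0.663). The part of these cell types in the results was not tested.

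Whether the junction differed from the neighbouring areas was tested in 52 ROIs of RM-HS and RM from plate C (16 at the junction, 18 each in medulla and cortex). In limma, the difference between RM-HS and RM was unlike that in medulla for 458 of 5263 genes (8.7%) and unlike that in cortex for 249 (4.73%). Within medulla 595 genes differed between RM-HS and RM (11.3%), and within cortex 26 (0.494%). F3, Plau, C3, Pck1 and G6pc passed both tests. These genes were taken beforehand as leading genes of the junction comparison. Both tests reuse its ROIs, so that passing was favoured by the choice. The F3 log2 fold change exceeded that in medulla by 1.41 ± 0.28 and that in cortex by 1.55 ± 0.28, and C3 exceeded them by 1.08 ± 0.21 and 1.15 ± 0.21. For Plau, which was also higher in RM-HS medulla (0.46 ± 0.14, adjusted p = 0.0236), the differences were 0.72 ± 0.17 and 1.04 ± 0.17. The Plau difference from medulla was lost without RM-HS run 2 (adjusted p = 0.0632), with 1 mean per well run (0.076) and after quantile normalization (0.0842). With 1 mean per well run, F3 passed neither test (adjusted p = 0.0873 and 0.0958).

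The Pck1 log2 fold change at the junction exceeded that in medulla by 1.70 ± 0.31 and that in cortex by 1.88 ± 0.31. For the G6pc log2 fold change, junction minus medulla was -1.84 ± 0.22 and junction minus cortex -1.45 ± 0.22. With 1 mean per well run Pck1 passed neither test (adjusted p = 0.0651 and 0.0762). Levels differed strongly between areas. Pck1 averaged 28.1 ± 3.42 in RM-HS and 27.2 ± 6.40 in RM in medulla (SD, n = 9 each), close to background, and 505 ± 267 in RM-HS and 535 ± 197 in RM in cortex. G6pc averaged 42.3 ± 5.39 in RM-HS and 40.7 ± 3.68 in RM in medulla, and 170.2 ± 22.4 in RM-HS and 224 ± 67.2 in RM in cortex. For the Slc2a5 log2 fold change, junction minus medulla was -1.41 ± 0.15 and junction minus cortex -1.47 ± 0.15. The same differences were -1.39 ± 0.13 and -1.12 ± 0.13 for Gpi1, and 1.08 ± 0.11 and 1.24 ± 0.11 for Neurl3. Slc2a5 averaged 25.55 in RM-HS and 23.48 in RM in medulla, and 36.05 in RM-HS and 32.16 in RM in cortex. These levels lay near the negative probe, so a change of Slc2a5 there would be understated.

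Genes with the lowest p against medulla included 3 that moved in opposite directions. Anxa2 was higher in RM-HS at the junction (0.72) and lower in RM-HS medulla (-0.87 ± 0.12, adjusted p = 1.46e-07), a difference of 1.60 ± 0.13. Its partner S100a10 was lower in medulla by -0.64 ± 0.12 (adjusted p = 0.000211), a difference of 1.36 ± 0.14. Hmga1, which encodes a chromatin protein, was higher at the junction (0.81 ± 0.16, adjusted p = 0.00205) and lower in medulla (-1.03 ± 0.15, adjusted p = 1.12e-06). Against cortex, Foxq1, a forkhead factor, and Cdr2 joined Neurl3, Slc2a5, Acly and Gpi1 at the lowest p, with differences of 1.21 ± 0.15 for Foxq1, 0.91 ± 0.12 for Cdr2 and -1.04 ± 0.12 for Acly.

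**Figure D5:**
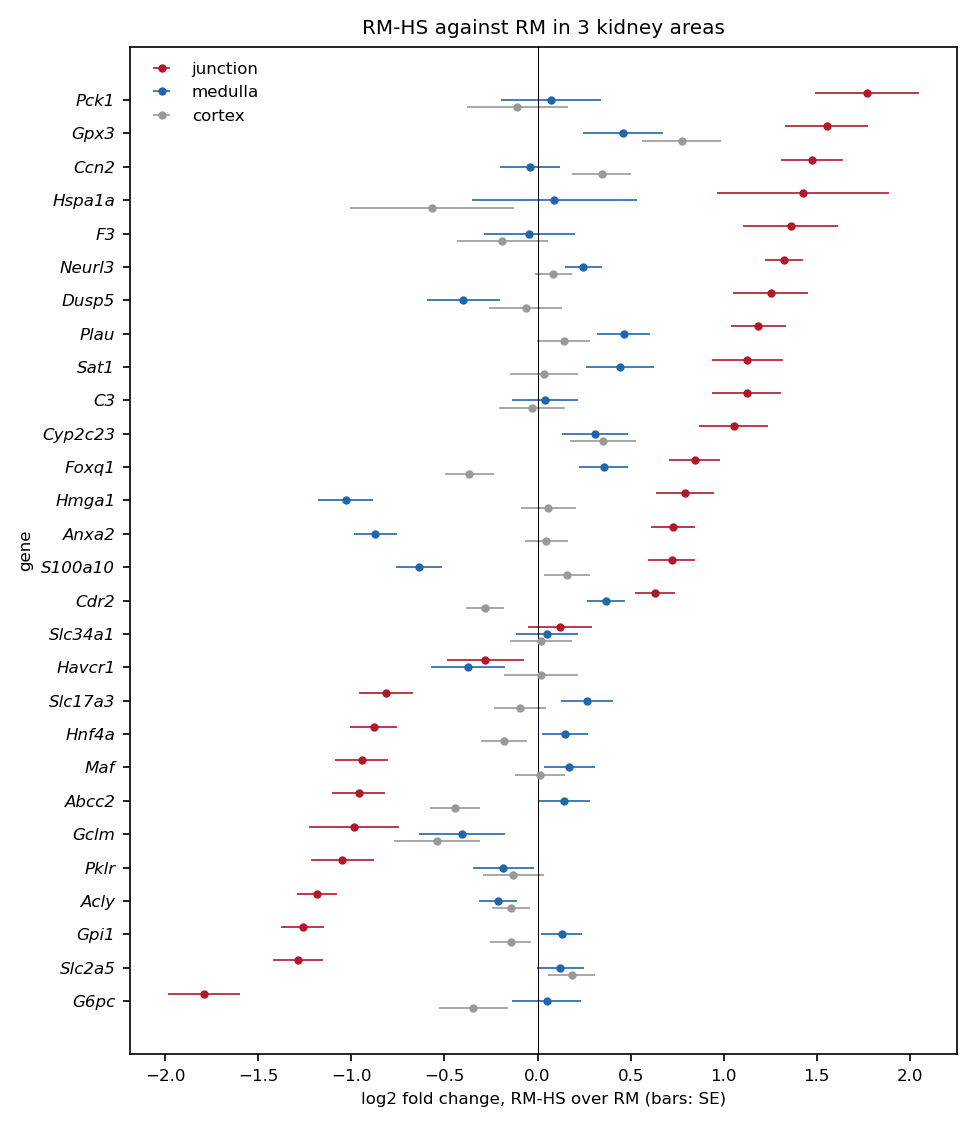
Log2 fold change of RM-HS over RM (x axis, bars SE) for named genes (rows) at the junction (red), in medulla (blue) and in cortex (grey), all from the fit of 52 ROIs. Junction points lie away from 0 for Pck1 and G6pc. The medulla points of both genes and the cortex point of Pck1 lie near 0. The cortex point of G6pc lies below 0 but nearer to it than its junction point. Anxa2, Hmga1 and S100a10 have medulla points below 0.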

How the data were processed

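ROIs were grouped by the group and area in the labels. The authors deposited 1 table of signal for 9271 genes and a negative-probe value in 132 ROIs, normalized to the upper quartile (75th percentile 58.2 in each ROI). No source used here names the software. The submitters' processing notes name GRCh38 and hg38, whose role is not given. Each ROI's values became whole reads within 1e-04 after multiplication by 1 factor (100% of values). Whole reads entered only the edgeR alternatives. Mouse gene symbols were kept: 4573 of the 4880 tested are also rat RefSeq symbols and 84 synonyms.

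Genes with a signal above 2 times background (the negative probe) in 4 or more of the 16 ROIs were kept (4391 left out). Signal + 1 was log2-transformed and fitted in limma 3.58.1 (R 4.3.3, statmod 1.5.0) with well run as a random block, a variance trend and two-sided Benjamini-Hochberg adjustment. A run starts, within a group, where another area follows a glomerular well. The test between areas kept genes over that level in at least 13 of 52 ROIs (block correlation 0.159). The fit was tested on simulated data. Of 120 pairs among the 16 ROIs none was identical (correlations 0.91 to 0.977).

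The members, gene lists, tests and named genes were chosen with earlier results of these data known. Named were the 12 largest rises and falls, up to 4 called members of each list (or the lowest p), the 6 lowest p in each test between areas, and F3, Plau, C3, Pck1, G6pc, Havcr1 and Slc34a1. Serpinc1, C1qb, C1qc and Fbp1 were named after their values were seen. Alternatives were a pseudocount of 5, subtraction of the negative probe, 2 other filters, quantile normalization, no block, 1 mean per run, a series-wide fit of 131 ROIs with a plate term, edgeR 4.0.16 on reads, and leaving out each run. Some genes are not reported here.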

Additional observations from a re-analysis of the deposited data

Results flagged for a closer look

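Among 154 pairs of a named gene and a group at the junction, 13 had 1 ROI far from the other 7 in its group by Dixon's test, which flags about 1 in 20 such groups by chance. In RM-HS, Hba-a1 reached 3415 in ROI 5 (run 2), with the next at 1009. RM-HS ROI 8 (run 3) was far above the rest for Slc34a1 (394.7, next 199.8), Ftl1 (1478, next 1056) and Abcc2 (76.59, next 65.6). Acly stood at 156.1 in RM-HS ROI 6, and H2-Ab1 at 38.29 in RM-HS ROI 2, the lowest there. In RM, ROI 5 (run 2) was far above for Hspa1a (65.88), Slc34a1 (214.6) and Igfbp1 (311.9), and ROI 8 (run 3) for Dusp1 (102.2) and Itgav (146.2). Ccn2 stood at 90.24 in RM ROI 6, and Uqcrc1 at 46.83 in RM ROI 4, the lowest there.

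The difference between RM-HS and RM at the junction was itself unlike that of another area for the named genes below, by limma's interaction contrast. Junction minus medulla was 1.60 for Anxa2, -1.39 for Gpi1, 1.82 for Hmga1, -1.41 for Slc2a5, 1.36 for S100a10, 1.08 for Neurl3, 1.41 for F3, 0.72 for Plau, 1.08 for C3, 1.70 for Pck1 and -1.84 for G6pc on the log2 scale. Junction minus cortex was 1.24 for Neurl3, -1.47 for Slc2a5, -1.04 for Acly, -1.12 for Gpi1, 1.21 for Foxq1, 0.91 for Cdr2, 1.55 for F3, 1.04 for Plau, 1.15 for C3, 1.88 for Pck1 and -1.45 for G6pc.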

How the results depend on the processing

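No call among the 77 genes that the rule takes changed direction under the alternatives run. Counts of higher and lower genes (137 and 113) moved by over 1.5 times without the block (275 and 268), with 1 mean per well run (58 and 30), in the series-wide fit (27 and 15), in edgeR on single ROIs (296 and 272) and in edgeR on summed reads (54 and 24). They ranged over 54 to 271 and 37 to 147 when 1 well run was left out. The junction differed from medulla for 458 genes (298 without the block, 112 with 1 mean per run, 305 to 410 without 1 run) and from cortex for 249 (163 after quantile normalization, 150 without the block, 31 with 1 mean per run, 119 to 308 without 1 run). The cause of these shifts was not tested. Means and sums per well run and fits without 1 run use fewer samples than the main fit. The labels give no replicate number shared by the groups. No paired analysis was possible because the columns carry none. Levels near the negative probe understate folds.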
